A study of Mus musculus with 12 samples.

Results

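The genes described here are 9 genes of cholesterol efflux and of the liver X receptors, 8 of which were measured among 18194 genes in whole mouse corneas. They are the receptor genes Nr1h3 and Nr1h2, the exporters Abca1 and Abcg1, the lipid transfer gene Pltp, the ester hydrolase gene Nceh1, the oxysterol enzyme genes Cyp7b1 and Ch25h, and the ubiquitin ligase gene Mylip. They were named as a list, with earlier results of these data known. Each was read from the brightest of the probe sets that the platform table assigns to its symbol alone, by the mean over 12 arrays. Nr1h2 was not analysed here.

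RNA of dissected corneas from C57BL/6J mice was hybridised to Affymetrix arrays, 1 array per sample. The intact corneas came from mice null for both Dscr-1 and ApoE (DKO), from Dscr-1-/- mice (Dscr1KO), from ApoE-/- mice (ApoeKO) and from wild-type mice (WT), with 2 arrays each. The sutured corneas had 1 array each: Dscr1KO and WT at day 5 after suturing, and mice with a Dscr-1 transgene (Tg) and WT at day 7. Dscr-1 is an older name of Rcan1, an inhibitor of the phosphatase calcineurin, and ApoE is a lipoprotein component that carries cholesterol. The sources used here do not give age, sex, the alleles or the promoter that drives the transgene.

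The liver X receptors are nuclear receptors that sense oxysterols, the oxidised forms of cholesterol, and act as heterodimers with retinoid X receptors. When loaded with ligand they raise the transcription of genes that move cholesterol out of the cell, which is best known in macrophages. Abca1 passes cholesterol and phospholipid to lipid-poor apolipoproteins, Abcg1 passes cholesterol to mature particles, and Pltp moves phospholipid between lipoproteins. Nceh1 frees cholesterol from stored esters, Ch25h makes an oxysterol ligand, Cyp7b1 hydroxylates oxysterols on the way to their removal, and Mylip marks lipoprotein receptors for degradation.

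Values are probe-set intensities on a linear scale that was set to a trimmed mean of 100 on each array. Differences were tested as log2(intensity + 3.6) with limma over 12711 genes, and a gene was called where its Benjamini-Hochberg adjusted p was under 0.05. All 8 measured genes passed the filter on low values. Precision is limited by having only 2 arrays in each intact group. The labels call the intact samples biological replicates.

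Several libraries stood apart or went against their labels. Rcan1 read between 331.7 and 477.5 in the 4 intact corneas without Dscr1, against 581.3 to 668.2 in the 4 with it. The probe set may lie outside the deleted exons, which no source used here states, so it does not test the labels. Apoe read 32.5 and 22.7 in DKO. It read 849.3 in the library labelled ApoeKO replicate 1 and 7.5 in the library labelled ApoeKO replicate 2, against 1030.5 and 776.5 in WT. Dscr1KO replicates 1 and 2 read 1272 and 316.8, and the source label of replicate 2 names ApoE-/-, while its title and genotype name Dscr-1-/-. Xist, a transcript of inactivated X chromosomes, read 4104 to 5385.2 in both Dscr1KO libraries, both ApoeKO libraries and DKO replicate 1, and 19.6 or less in the other 7. The summed corneal epithelial markers lay between 28325.2 and 45162.3 on all 12 arrays. That sum hides opposite shifts in intact corneas. Pax6 read 1008.2 to 2458.6 without Dscr1, against 3118.4 to 3600.6 with it. Krt14 read 4200.4 to 8672.1 without Dscr1, against 761.1 to 2615.9 with it. The other markers of that list overlapped between these corneas. The libraries labelled ApoeKO replicate 1 and Dscr1KO replicate 2 are called the doubtful libraries, and fits without them were run. These fits leave 1 array in ApoeKO and 1 in Dscr1KO. A fit with Xist as a covariate takes the Xist effect mainly from the 2 DKO arrays, which read 4256.9 and 19.6. This holds for every contrast, since replicates of each other intact group were both high or both low. Xist is high in both intact Dscr1KO arrays and both ApoeKO arrays, and low in both intact WT arrays. Outside the covariate fit, Dscr1KO against WT and ApoeKO against WT therefore cannot separate genotype from Xist level. DKO replicate 1 also had a photoreceptor marker sum of 3259.8, against 22.5 in DKO replicate 2.

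Promoter sequence was read for 4 of the 5 genes called in the average over Dscr1 loss, all but Cyp7b1, to show what the window around each start holds. RefSeq (GRCm38.p6) lists a promoter of 300 bases, 250 before and 50 after the start, for 7 of the 9 genes, all but Cyp7b1 and Abcg1, with 8 entries because Nr1h3 has 2. The sequences run 5′ to 3′ along the gene, and capitals mark the letters GGGCGG or its reverse complement CCGCCC, the letters TATAAA, and in Abca1 also a longer match to the receptor element. The Abca1 promoter is at chr4:53159846-53160145 on the minus strand, that of Pltp at chr2:164857659-164857958 on the minus strand, that of Nceh1 at chr3:27182754-27183053 on the plus strand, and that of Mylip at chr13:45389492-45389791 on the plus strand.
Abca1: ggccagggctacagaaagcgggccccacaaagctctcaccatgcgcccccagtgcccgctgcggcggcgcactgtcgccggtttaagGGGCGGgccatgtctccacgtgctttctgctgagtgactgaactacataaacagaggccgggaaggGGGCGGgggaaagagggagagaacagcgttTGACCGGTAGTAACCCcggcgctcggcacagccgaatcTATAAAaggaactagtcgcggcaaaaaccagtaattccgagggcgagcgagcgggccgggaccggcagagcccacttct
Pltp: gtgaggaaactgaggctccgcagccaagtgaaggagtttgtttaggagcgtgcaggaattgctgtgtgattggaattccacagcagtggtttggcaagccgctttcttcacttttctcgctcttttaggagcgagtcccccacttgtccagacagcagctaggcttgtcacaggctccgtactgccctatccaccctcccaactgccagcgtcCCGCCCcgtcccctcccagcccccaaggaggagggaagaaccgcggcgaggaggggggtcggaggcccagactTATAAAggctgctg
Nceh1: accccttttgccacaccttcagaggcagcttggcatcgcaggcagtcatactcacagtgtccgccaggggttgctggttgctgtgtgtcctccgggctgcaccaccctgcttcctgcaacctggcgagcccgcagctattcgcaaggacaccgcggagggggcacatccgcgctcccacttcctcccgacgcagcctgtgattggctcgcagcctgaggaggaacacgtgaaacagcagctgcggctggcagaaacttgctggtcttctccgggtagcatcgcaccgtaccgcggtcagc
Mylip: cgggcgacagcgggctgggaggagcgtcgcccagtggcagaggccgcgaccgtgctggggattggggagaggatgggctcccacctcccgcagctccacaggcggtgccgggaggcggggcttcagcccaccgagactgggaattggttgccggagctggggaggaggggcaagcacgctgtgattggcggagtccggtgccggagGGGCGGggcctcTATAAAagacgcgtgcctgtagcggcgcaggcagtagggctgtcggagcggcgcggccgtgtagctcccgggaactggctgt

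The element that liver X receptors are known to bind, called DR4, is the letters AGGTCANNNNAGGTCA, and it was searched on both strands. With up to 2 mismatches in its 12 fixed letters it was in 0 of the 8 promoters, against 3.02% of 32851 promoters of the same length. With up to 3 mismatches, a setting chosen after the letters were seen, it was in 1 of 8, against 21.9% of all. That match lies in the Abca1 promoter on the minus strand, reads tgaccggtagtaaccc along the gene and begins at base -67 counted from the start. GGGCGG, the letters of a GC box, was found in 3 of 8, those of Abca1, Pltp and Mylip, against 35.7% of all promoters. TATAAA was in 4 of 8, those of Abca1, Pltp, Mylip and Ch25h, against 13.6% of all. The Abca1 and Mylip matches begin at -29 and -32, that of Pltp at 37 after the start and that of Ch25h at -151. The Nceh1 window held none of these motifs. No motif match overlapped another. A match is only a run of letters, and its absence says nothing about sites outside the window.

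Corneas without Dscr1 had more Cyp7b1, Abca1, Pltp and Nceh1 RNA and less Mylip RNA than corneas with Dscr1, averaged over both Apoe backgrounds. Cyp7b1 differed most, at 8.86-fold. The exporter Abcg1, the receptor Nr1h3 and the oxysterol enzyme Ch25h were not called. In count, 4 of 8 genes were called higher, where 16.2% of the 12711 genes tested were, and 1 of 8 lower, where 15.3% were. The median log2 difference of the 8 was 1.17, against -0.02 over all genes tested. The members and the other lists were chosen with earlier results of these data known. Shares of a list beside all genes, here and below, are therefore a description and not an independent test. In whole corneas, fewer cells of a type and less RNA per cell cannot be told apart, and this holds for every comparison here.

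**Figure D1:**
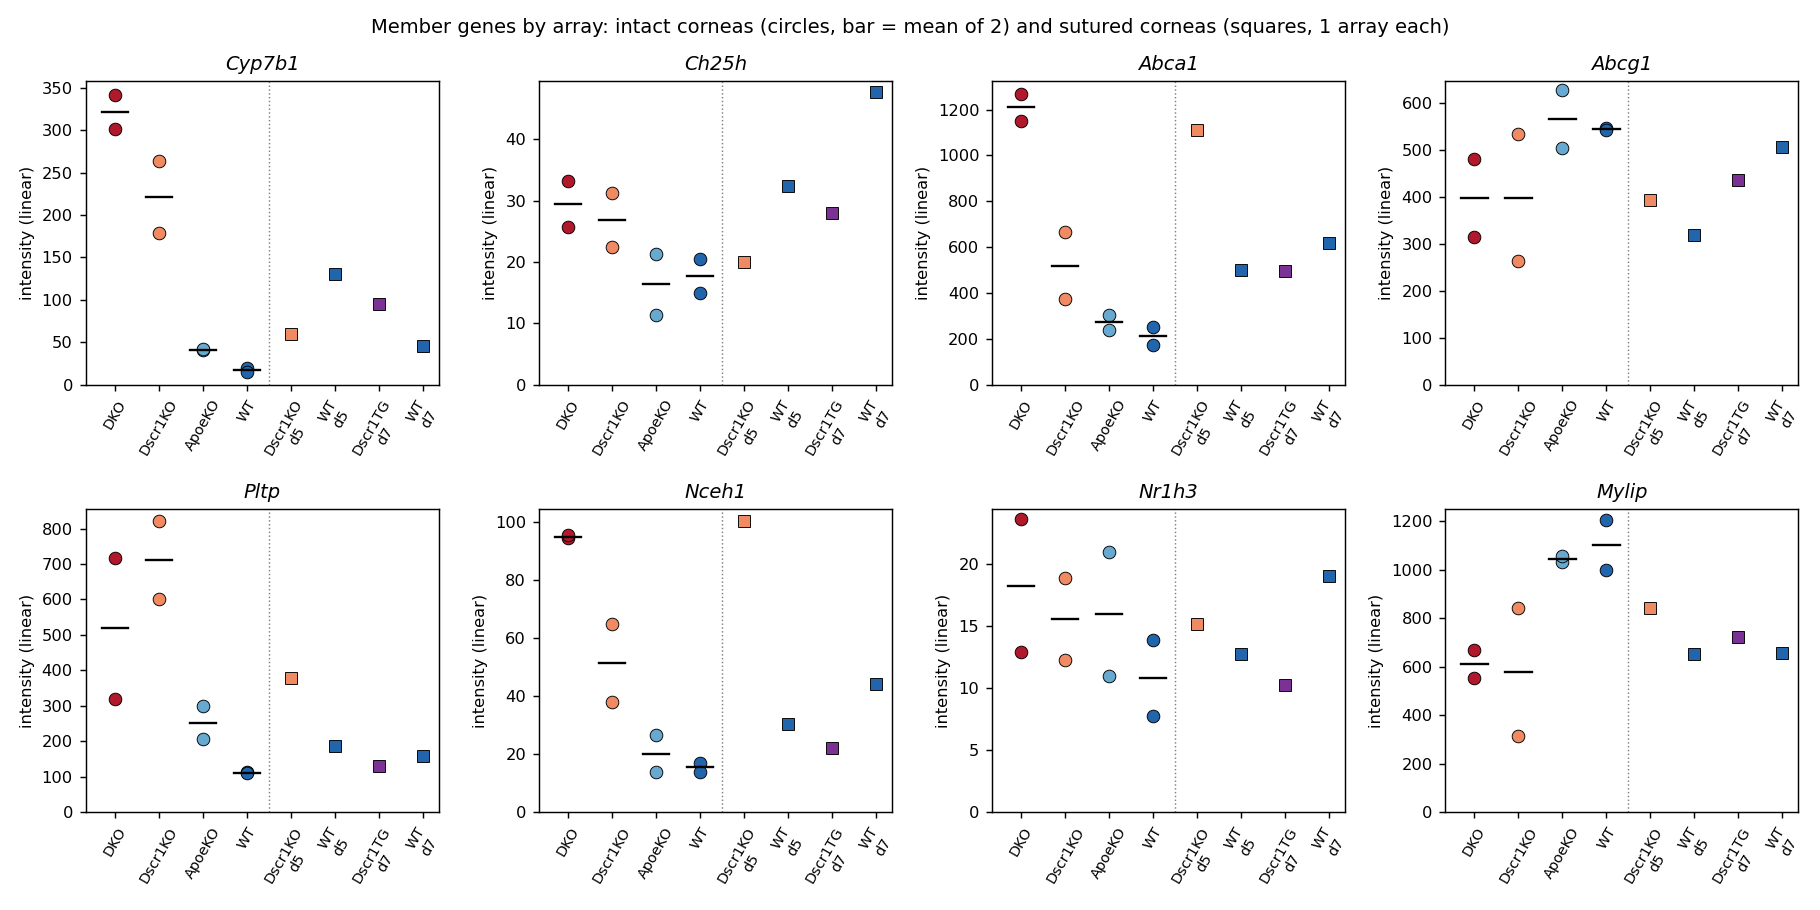
Intensity (linear axis from 0) of each of the 8 genes on each array, by group; circles are intact corneas with a bar at the mean of 2, and squares are sutured corneas with 1 array each. Abca1 reads 1148.4 or more in DKO and 303.7 or less in ApoeKO and WT, while Mylip reads 842.7 or less in both groups without Dscr1 and 1000.4 or more in the intact groups with it.

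Abca1, the exporter to lipid-poor apolipoproteins, read 1269.5 and 1148.4 in DKO, 664.1 and 374.4 in Dscr1KO, 239.4 and 303.7 in ApoeKO, and 253.3 and 172.8 in WT. All 4 arrays without Dscr1 lay above all 4 with it, and both DKO arrays lay above both Dscr1KO arrays. It rose by 2.51 ± 0.30 on the log2 scale in DKO against WT (SE; adjusted p = 0.00172), by 2.15 ± 0.30 in DKO against ApoeKO (adjusted p = 0.00385) and by 1.24 ± 0.30 in Dscr1KO against WT (adjusted p = 0.0363). Averaged, it rose by 1.69 ± 0.21 (adjusted p = 0.00112). The Dscr1KO against WT call was lost with Xist as a covariate (1.08 ± 0.59, adjusted p = 0.372), in a fit of these 2 groups alone (1.24 ± 0.34, 0.113), and without WT replicate 1 (0.0883) or WT replicate 2 (0.248). The value comes from 1 of 3 Abca1 probe sets: the other two read between 0.5 and 13.4 on every array, and the brighter of these gave an averaged difference of 0.93 ± 0.44 (adjusted p = 0.144) and no call in any contrast of Dscr1 loss.

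Abcg1, the exporter to mature particles, read 314.2 and 480 in DKO, 532.8 and 262.7 in Dscr1KO, 503.8 and 627.6 in ApoeKO, and 546.2 and 540.7 in WT. Both arrays of each group without Dscr1 lay below both of its control, but the library labelled Dscr1KO replicate 1 lay above the lower ApoeKO array. The averaged difference was -0.53 ± 0.24 on the log2 scale and was not called (adjusted p = 0.126). Without that library, which leaves only the doubtful replicate 2 in its group, the averaged difference was -0.78 and Dscr1KO against WT was -1.04. Without both libraries whose Apoe level or label is in doubt, Dscr1KO against WT was -0.03 ± 0.27. The 2 sterol exporters had values of opposite sign, and the difference between them was not tested.

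Pltp, the phospholipid transfer gene, read 320.4 and 717.4 in DKO, 820.2 and 601.3 in Dscr1KO, 298.6 and 206.6 in ApoeKO, and 114.1 and 109.6 in WT. Every array without Dscr1 was above every array with it, yet the lower DKO array was close to the higher ApoeKO array. It rose by 2.61 ± 0.37 in Dscr1KO against WT (adjusted p = 0.00539), by 2.07 ± 0.37 in DKO against WT (adjusted p = 0.00778) and by 1.78 ± 0.26 in the average (adjusted p = 0.00222). DKO against ApoeKO gave 0.94 ± 0.37 (adjusted p = 0.113), and 1.52 without DKO replicate 1, which leaves 1 DKO array. Without WT replicate 2 the Dscr1KO call was lost (adjusted p = 0.0567), and the DKO against WT call was lost without WT replicate 1 (0.0535) or replicate 2 (0.0651). With Xist as a covariate Pltp gave 3.89 ± 0.42 in Dscr1KO against WT (0.0201), 2.74 in DKO against WT (0.00665) and 0.34 in DKO against ApoeKO (0.445). A second, dimmer Pltp probe set rose by 1.52 ± 0.24 in the average (adjusted p = 0.00314).

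Nceh1, the cholesteryl ester hydrolase gene, read 94.7 and 95.4 in DKO, 64.8 and 38 in Dscr1KO, 26.7 and 13.8 in ApoeKO, and 17.1 and 13.8 in WT. Its order of groups was that of Abca1, with DKO above Dscr1KO and both above the corneas with Dscr1. It rose by 2.38 ± 0.36 in DKO against WT (adjusted p = 0.00423), by 2.10 ± 0.36 in DKO against ApoeKO (0.00762) and by 1.49 ± 0.36 in Dscr1KO against WT (0.0368). The average was 1.80 ± 0.25 (adjusted p = 0.00194), and a second probe set gave 1.99 ± 0.34 (0.00407). The Dscr1KO against WT call was lost with no filter on low values (0.0528), with Xist as a covariate (1.52 ± 0.69, 0.303), in a fit of these 2 groups alone (1.49 ± 0.35, 0.0801), and without WT replicate 1 (0.144), WT replicate 2 (0.225) or Dscr1KO replicate 1 (0.066). The DKO against ApoeKO call was lost without ApoeKO replicate 2 (0.0663).

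Cyp7b1, the oxysterol hydroxylase gene, read 301.2 and 341.6 in DKO, 178.8 and 263.9 in Dscr1KO, 40.7 and 41.9 in ApoeKO, and 19.2 and 14.5 in WT. The 4 groups did not overlap, and the lowest array without Dscr1 was far above the highest intact array with it. It rose by 3.997 ± 0.25 in DKO against WT (adjusted p = 0.000148), by 3.44 ± 0.25 in Dscr1KO against WT (0.00037), by 2.85 ± 0.25 in DKO against ApoeKO (0.000679) and by 3.15 ± 0.17 in the average (3.8e-05). These 4 calls held under every alternative run. A second probe set gave 3.42 ± 0.16 in the average (adjusted p = 1.99e-05), and the third read 9.2 or less on every array.

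Ch25h, which makes an oxysterol ligand of the receptors, read 25.7 and 33.2 in DKO, 22.5 and 31.2 in Dscr1KO, 21.3 and 11.4 in ApoeKO, and 20.5 and 14.9 in WT. The arrays without Dscr1 all lay above those with it, by a small margin at a low level. The averaged difference of 0.64 ± 0.26 was not called (adjusted p = 0.0928). Nr1h3, which encodes LXR alpha, read 23.7 and 12.9 in DKO, 18.9 and 12.3 in Dscr1KO, 11 and 21 in ApoeKO, and 7.8 and 13.9 in WT. Its groups overlapped throughout, and the averaged difference was 0.29 ± 0.31 (adjusted p = 0.513).

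Mylip, the ligase that marks lipoprotein receptors, read 667.3 and 553.7 in DKO, 842.7 and 314.4 in Dscr1KO, 1031.4 and 1056.1 in ApoeKO, and 1207.3 and 1000.4 in WT. It was the member that fell, by 0.93 ± 0.28 in the average (adjusted p = 0.0369). Like Abca1, it is a known target of the liver X receptors. In the single contrasts it was not called, at -1.09 ± 0.39 in Dscr1KO against WT (0.111), -0.85 in DKO against WT (0.168) and -0.78 in DKO against ApoeKO (0.203). The averaged call was lost with Xist as a covariate (0.0829) and without either replicate of WT, ApoeKO or DKO (0.0693 to 0.118). The Dscr1KO against WT value was -1.79 without Dscr1KO replicate 1, which leaves only the doubtful replicate 2, and -0.38 without replicate 2. Without the doubtful libraries, DKO against WT was called at -0.85 ± 0.17 (0.0186). In fits of the 2 groups alone, DKO against WT (0.0189) and DKO against ApoeKO (0.0179) were called.

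By single contrast, 4 of 8 genes were called higher in DKO against WT, where 11.3% of all genes were, 3 in DKO against ApoeKO, where 10.9% were, and 4 in Dscr1KO against WT, where 7.78% were. No member was called lower in these 3 contrasts, where 8.7%, 8.6% and 3.88% of all genes were. The first and last of the 3 share the WT arrays. Leaving out both doubtful libraries leaves 1 array each in ApoeKO and Dscr1KO. The averaged differences were then 3.0 for Cyp7b1, 1.81 for Abca1, 2.02 for Pltp, 2.18 for Nceh1 and -0.59 for Mylip. In Dscr1KO against WT they were 3.17, 1.65, 2.84 and 1.85 for Cyp7b1, Abca1, Pltp and Nceh1, with 1 Dscr1KO array.

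**Figure D2:**
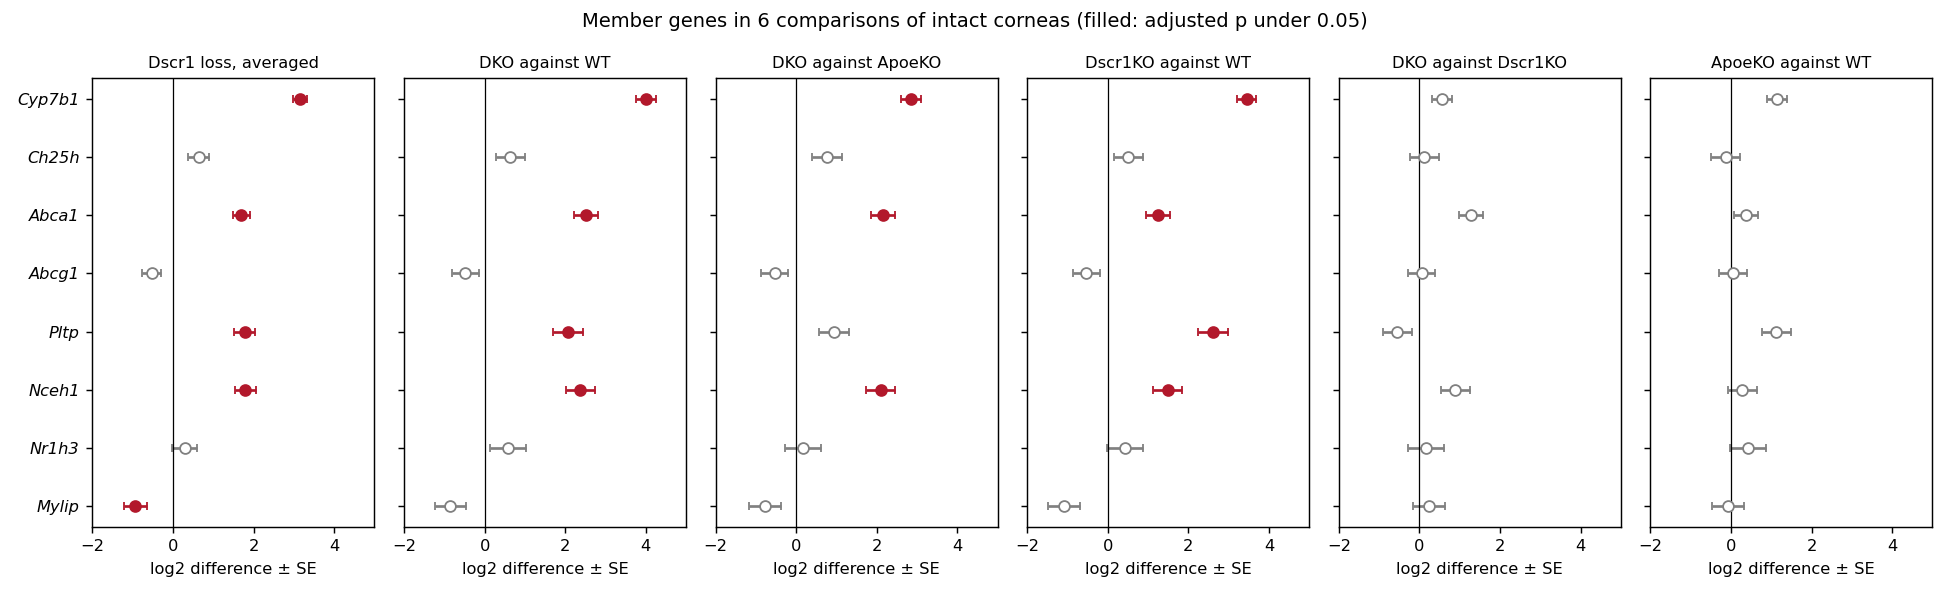
Log2 difference with its standard error (horizontal axis) of the 8 genes in 6 comparisons of intact corneas; filled red points have an adjusted p under 0.05. Cyp7b1, Abca1 and Nceh1 are called in each comparison of Dscr1 loss, Pltp in all but DKO against ApoeKO, Mylip in the average alone, and no gene in the 2 comparisons of Apoe loss.

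The contrasts labelled as loss of Apoe called none of the 8 genes by limma, in ApoeKO against WT or in DKO against Dscr1KO, where 0% and 0.0236% of all genes were called higher and 0.0236% and 0% lower. The first includes the library labelled ApoeKO replicate 1, which read Apoe at the WT level. Xist read 4622.1 and 4598 in ApoeKO and 14.9 and 8.9 in WT. Differences in that contrast therefore cannot be told apart from Xist level, except through the covariate fit. At an unadjusted p under 0.05, 2 of 8 passed in each, where 477 and 1363 of 12711 genes did. In ApoeKO against WT these were Cyp7b1, at 1.14 ± 0.25 (adjusted p = 0.474), and Pltp, at 1.13 ± 0.37 (0.961), whose ApoeKO and WT arrays did not overlap. Pltp was called in a fit of these 2 groups alone (adjusted p = 0.0217). In DKO against Dscr1KO they were Abca1, at 1.27 ± 0.30 (0.328), and Nceh1, at 0.89 ± 0.36 (0.463), also without overlap. Abca1 was at 1.68 there without Dscr1KO replicate 1, which leaves only the doubtful replicate 2 in that group. Without the doubtful libraries none of the 8 was called in either contrast. ApoeKO against WT then gave 1.16 for Cyp7b1, 0.86 for Pltp and -0.13 for Nceh1, and DKO against Dscr1KO gave 0.86 for Abca1 and 0.53 for Nceh1. With Xist as a covariate Pltp was at 2.40 ± 0.42 in ApoeKO against WT (adjusted p = 0.195) and at -1.15 ± 0.28 in DKO against Dscr1KO (0.134), and neither was called.

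Whether Dscr1 loss acted alike with and without Apoe was tested as an interaction, (DKO minus ApoeKO) minus (Dscr1KO minus WT). None of the 8 genes was called, where 0.00787% of all genes were higher and 0% lower, and 1 of 8 passed at an unadjusted p under 0.05, where 964 of 12711 genes did. That gene was Pltp, at -1.67 ± 0.52 (adjusted p = 0.572), and at -3.55 ± 0.61 with Xist as a covariate (0.0864). Abca1 gave 0.91 ± 0.42 (0.673) and Cyp7b1 -0.59 ± 0.35 (0.72). An adjusted p above the threshold does not show that the effects are equal.

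Suturing places a stitch in the cornea, a common way of provoking inflammation and vessel growth in it. Across Dscr1KO and WT, with genotype as a term over 7 arrays, 0 of 8 members and 0% of all genes were called by limma, while 2 of 8 members and 1251 of 12711 genes had an unadjusted p under 0.05. The members were Abca1, at 1.296 ± 0.24 (adjusted p = 0.372), and Nceh1, at 1.04 ± 0.25 (0.398). Over the WT arrays alone, 2 of 8 members were called, 1 higher and 1 lower, where 3.23% and 1.35% of all genes were. Abca1 read 499 and 618.1 in sutured WT at days 5 and 7, against 253.3 and 172.8 in intact WT, and rose by 1.39 ± 0.21 (0.0255). Mylip read 652.2 and 656.1, against 1207.3 and 1000.4, and fell by 0.75 on the log2 scale (SE 0.13; adjusted p = 0.0394). The remaining 6 were not called, among them Cyp7b1 at 1.99 ± 0.48 (0.0768). Days 5 and 7 are pooled in these fits.

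In sutured corneas at day 5, Dscr1KO and WT were compared on 1 array each, with no replicate check. Abca1 read 1111.8 in Dscr1KO and 499 in WT, Nceh1 100.3 and 30.5, and Pltp 378.6 and 186.7. These are log2 differences of 1.15, 1.61 and 1.01, in the direction seen in intact corneas. Cyp7b1 went the other way, at 59.8 in sutured Dscr1KO and 130.7 in sutured WT, a difference of -1.08. In all, 4 of 8 genes differed by 1 or more on the log2 scale, 3 up and 1 down, where 4.12% and 1.94% of all genes did. Abcg1 at 0.31, Mylip at 0.37, Nr1h3 at 0.20 and Ch25h at -0.61 stayed under that size.

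The difference between the sutured and the intact effect of Dscr1 loss was tested after Cyp7b1 was seen to differ, in a limma fit of 8 groups whose spread comes from the intact arrays. Cyp7b1 gave -4.53 ± 0.43 on the log2 scale (adjusted p = 0.00551) and was the only one of 8 called, where 0.598% of all genes were called lower and 0.0865% higher. Over 10 other settings it lay between -4.80 and -4.09, with adjusted p up to 0.0425. Abca1 at -0.09 ± 0.52 and Nceh1 at 0.12 ± 0.62 had wide errors, and Pltp gave -1.61 ± 0.64 (adjusted p = 0.339). Mylip gave 1.46 ± 0.68 (0.384), and 2.16 without Dscr1KO replicate 1, which leaves only the doubtful replicate 2 among intact Dscr1KO arrays. The lone sutured array of each genotype is assumed to vary like the intact ones. The 2 sutured WT arrays, of different days, read Cyp7b1 at 130.7 and 45.1. Xist was high in intact Dscr1KO, at 4104 and 5385.2, and low in intact WT, at 14.9 and 8.9. It was low in both sutured arrays of day 5, at 6.0 in Dscr1KO and 9.6 in WT. The intact difference thus comes with a difference in Xist that the sutured one lacks, and its part was not tested. Because the test was picked for what it found and holds no spread among sutured corneas, its p describes these arrays and is not support for a difference between the conditions.

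**Figure D3:**
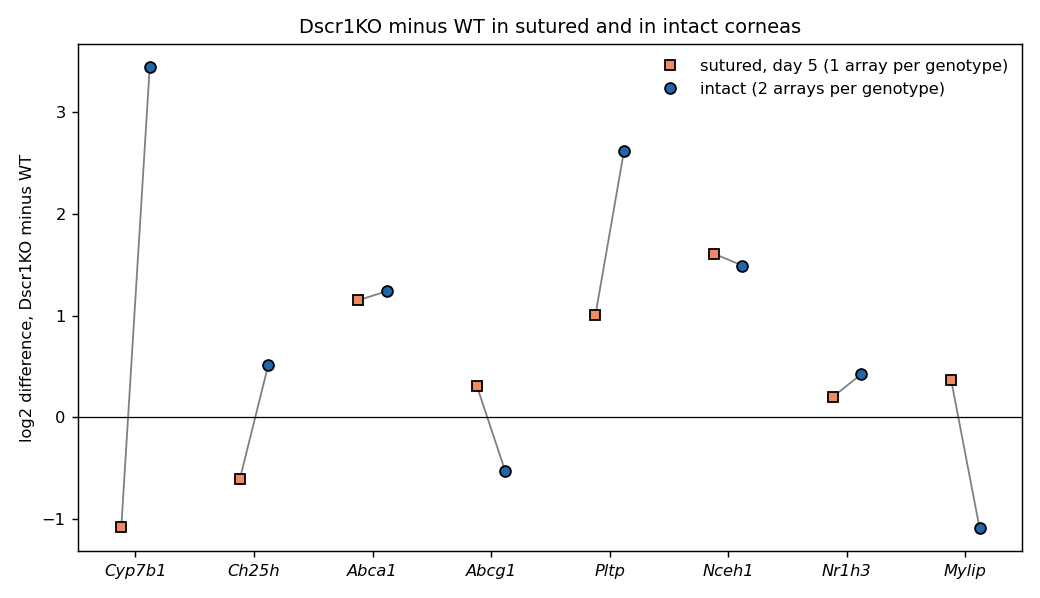
Log2 difference of Dscr1KO minus WT (vertical axis) for the 8 genes in sutured corneas at day 5 (squares, 1 array per genotype) and in intact corneas (circles, 2 arrays per genotype), joined by a line. Abca1 and Nceh1 have nearly equal values in both settings, and Cyp7b1 is at -1.08 sutured and 3.44 intact.

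At day 7, the Tg cornea was compared with WT on 1 array each. Cyp7b1 read 95.4 in Tg and 45.1 in WT, a log2 difference of 1.02. It was the only one of 8 past a size of 1, where 0.755% of all genes were past it upwards and 3.48% downwards. Nceh1 read 22.2 in Tg and 44.1 in WT (-0.89), and Ch25h 28 and 47.7 (-0.70). Abca1 read 494.9 and 618.1 (-0.32). In WT, Cyp7b1 read 130.7 at day 5 and 45.1 at day 7, a log2 difference of day 7 minus day 5 of -1.46, where 2% of all genes were past a size of 1 downwards and 3.27% upwards. The other seven moved by 0.67 or less in size between the days. Rcan1 read 548.3 in the Tg cornea and 579.7 in WT at day 7, so the Tg array did not read higher at this probe set.

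Of 31 further genes of sterol transport, receptor partners and oxysterol metabolism, 26 were measured and 22 tested. In the averaged loss of Dscr1, 3 of 22 were higher and 6 lower, beside 16.2% and 15.3% over all genes, with a median of 0.04. Those with the largest differences were Cyp27a1, which makes an oxysterol in mitochondria, at 1.29 ± 0.23 (adjusted p = 0.00528), Cyp39a1, an oxysterol hydroxylase gene, at -1.25 ± 0.36 (0.0335), Vldlr, a lipoprotein receptor that Mylip marks, at -1.10 ± 0.35 (0.0464), and Abcg4, a sterol exporter gene, at -0.87 ± 0.24 (0.0262). Cyp27a1 read 91.8 and 133.4 in DKO and 136.4 and 75.6 in Dscr1KO, against 42.7 and 57.9 in ApoeKO and 35.5 and 32.8 in WT.

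Srebf1 and Lpcat3 were the further genes called lower in DKO. Both were also called lower in the averaged loss of Dscr1. Srebf1 was at -0.73 ± 0.12 there (limma, adjusted p = 0.00312) and Lpcat3 at -0.56 ± 0.12 (0.00982). Srebf1, a lipogenic factor gene and a known target of the receptors, read 435.6 and 428.6 in DKO, 489 and 627.2 in Dscr1KO, 872.9 and 784.9 in ApoeKO, and 830.4 and 780.1 in WT. It fell by 0.93 ± 0.17 in DKO against ApoeKO (adjusted p = 0.00856) and by 0.89 ± 0.17 in DKO against WT (0.00905). Lpcat3, which remodels phospholipids and is also such a target, read 214.1 and 251.6 in DKO, 356.1 and 405.5 in Dscr1KO, 430.6 and 493.9 in ApoeKO, and 431.4 and 402.8 in WT. It fell by 0.98 ± 0.17 in DKO against ApoeKO (0.00733) and by 0.84 ± 0.17 in DKO against WT (0.0118). These were the 2 of 22 called lower in each of those contrasts, with 0 higher in the first and Cyp27a1 higher in the second (1.60 ± 0.33, 0.0135). Over all genes 8.6% and 8.7% were called lower there, so 2 of 22 is near that share, and 10.9% and 11.3% higher. In Dscr1KO against WT, Cyp27a1 was the only one of 22 called (1.48 ± 0.33, 0.0281), where 7.78% of all genes were higher and 3.88% lower. None of the 22 was called by limma in ApoeKO against WT, in DKO against Dscr1KO, in the interaction or in suturing, where 0, 3, 1 and 6 had an unadjusted p under 0.05, beside 477, 1363, 964 and 1251 of all 12711 genes. In suturing the lowest p were those of Vldlr, at -1.31 ± 0.24 (0.348), and of Abca7, a lipid transporter gene, at -0.53 ± 0.15 (0.415).

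Markers of other cell types also differed between these corneas. The 18 macrophage markers, all measured and none at 0 on any array, summed to 7823 and 12312.8 in DKO, 12807.9 and 5428.7 in Dscr1KO, 2755.3 and 1442.9 in ApoeKO, and 871 and 851.1 in WT. In the averaged loss of Dscr1, 15 of 18 were called higher and 1 lower, with a median of 2.75, where 16.2% of all genes were higher and 15.3% lower. The sum was 10162.7 in sutured Dscr1KO and 4720.9 in sutured WT at day 5, and 4220.8 in Tg and 6267.1 in WT at day 7. Intact WT had the lowest sums. Every intact array without Dscr1 had a higher sum than every intact array with it, as was so for Abca1 and Nceh1. Within each of these sets, the order of arrays by this sum was not that of Abca1 or Nceh1. The highest sum, in Dscr1KO replicate 1, went with Abca1 at 664.1 and Nceh1 at 64.8. In DKO replicate 1 the sum of 7823 went with Abca1 at 1269.5 and Nceh1 at 94.7. The part of these cells in the differences of Abca1, Nceh1, Pltp and the others was not tested.

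The 5 measured neutrophil markers of 8 summed to 10728.4 and 15737.6 in DKO, 8624.3 and 19710.9 in Dscr1KO, 287.8 and 117.5 in ApoeKO, and 209.2 and 139.8 in WT. In sutured corneas they summed to 1197.2 in Dscr1KO and 10899.7 in WT at day 5, and to 6062.2 in Tg and 2175.5 in WT at day 7. These sums are mostly S100a8 and S100a9, which keratinocytes can also express, at 642.3 and 390.1 in Dscr1KO, against 4596.4 and 6191.6 in WT at day 5. The other 3 went the opposite way at day 5, with Csf3r at 70.8 in Dscr1KO and 62.9 in WT, Cxcr2 at 17.8 and 13.6, and Mmp9 at 76.2 and 35.2. At day 7 Csf3r was at 40.7 in Tg and 78.5 in WT, and Mmp9 at 83.4 and 281.1, also against the sum. The 10 keratinised epithelium markers summed to 17698.2 to 31697.8 in the 4 intact corneas without Dscr1, against 289.7 to 369.3 in the 4 with it. At day 5 after suturing this sum was 347.1 in Dscr1KO and 1058.2 in WT. The part of either in the Cyp7b1 result was not tested.

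**Figure D4:**
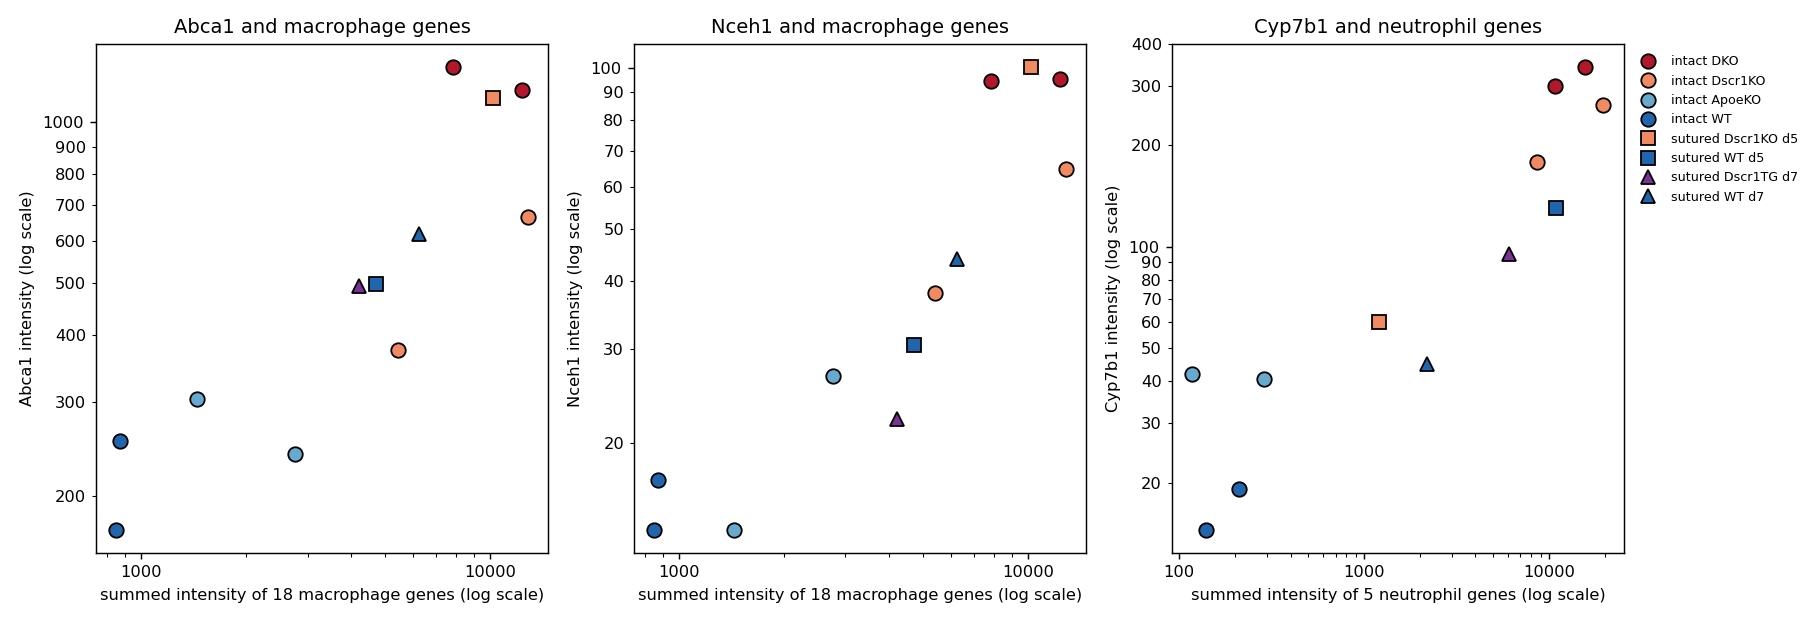
Intensity of Abca1, Nceh1 and Cyp7b1 (vertical log axes) on each of 12 arrays against the summed intensity of macrophage or neutrophil markers (horizontal log axes); circles are intact corneas, squares sutured at day 5 and triangles sutured at day 7. Intact WT arrays are at the lower left of each panel and DKO arrays at the upper right. The neutrophil sum is mostly S100a8 and S100a9.

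Other marker lists were read in the same averaged comparison, where 16.2% of all genes tested were higher and 15.3% lower. Blood endothelial markers were called higher in 9 of 10, smooth muscle and pericyte markers in 3 of 6, and keratinised epithelium markers in 9 of 10 with 1 lower. All 5 tested neutrophil markers were higher. Lens markers were lower in 10 of 12, and corneal endothelial markers were lower in 4 and higher in 1 of 5. The lens sum set intact WT apart, at 10912.9 and 8263.1. It was 2095.4 and 1600.9 for ApoeKO, and 535.3 to 1279.4 on intact arrays without Dscr1. Sutured WT had 1641.7 at day 5 and 8559.3 at day 7. For ApoeKO against WT the lens median was -3.69, with 11 of 12 at an unadjusted p under 0.05 (limma). The part of lens tissue in comparisons that use WT, the average included, was not tested. Corneal epithelial and keratocyte markers each had 1 called in each direction, of 7 and 6, which is near the shares over all genes. The 2 tested photoreceptor markers were not called, though their list summed to 3259.8 in DKO replicate 1 and to 261.8 or less elsewhere. No adipocyte marker passed the filter, and their sum was 22.7 or less on every array.

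Among the 8 genes, Abca1 and Nceh1 had the most alike pattern over the 12 arrays (Pearson r = 0.92), and Abcg1 and Mylip had an r of 0.77. Over all tested genes, the most alike to Abca1 were Smoc2 (r = 0.97) and Serpinb6a (0.96), and to Nceh1 they were Creg1 (0.97) and Arhgap15 (0.96). Those most alike to Cyp7b1 were Sprr1a (0.98) and Dmkn (0.97), and to Pltp they were C2 and Il33 (0.94 each). Those most alike to Mylip were Nek9 and Btbd1 (0.97 each), to Abcg1 Zfp748 (0.98) and Thap2 (0.97), to Ch25h Pabpc4 (0.90) and Slc27a3 (0.88), and to Nr1h3 2610316D01Rik and Ypel1 (0.84 each). The arrays share groups, so r over 12 arrays mostly reflects the group levels, and it is given as a description.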

How the data were processed

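Whole mouse corneas were measured on 12 Affymetrix arrays of 45101 probe sets, from 100 ng of total RNA per the labels' protocols. The deposited values are probe-set intensities on a linear scale, scaled by the authors array by array to a trimmed mean of 100 (2% cut from either end), as the values show. Array medians were 15.6 to 21.1. The sources used here do not name the software. Of the probe sets, 34958 carry 1 symbol, 932 several and 9211 none, and only the first were used, with the brightest by mean log2 value standing for each of 18194 genes.

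Samples were grouped by the titles in the labels. A pseudocount of 3.6 (the 20th percentile of values) was added before taking log2. The 12711 genes tested had a mean log2 value no lower than the 40th percentile over probe sets. limma 3.58.1 in R 4.3.3 was run with 1 coefficient per intact group and an intensity trend, and p-values were adjusted by Benjamini-Hochberg per comparison, with a threshold of 0.05. Suturing was fitted on 7 arrays with genotype as a term. The test of Dscr1 effects between sutured and intact corneas came after the values were seen. Single arrays were compared as log2 differences. The fit was tested on simulated data. Figures used matplotlib 3.10.9 in python 3.11.15.

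The members and lists were chosen with earlier results of these data known. Named further genes are up to 4 with the largest called differences per comparison, or 2 with the lowest p, and the 2 genes most alike to each member. Alternatives were filters (none, 60th percentile), quantile normalization, pseudocounts of 0.6 and 10.2, the second-brightest probe set, a replicate block, only the groups compared, an Xist covariate, both doubtful libraries left out, and each array left out in turn. Protein sequences were not used here.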

Additional observations from a re-analysis of the deposited data

Results flagged for a closer look

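The difference in Cyp7b1 between Dscr1KO and WT had opposite signs in sutured and intact corneas on these arrays. Dscr1KO minus WT was -1.08 at day 5 after suturing, with 59.8 in Dscr1KO and 130.7 in WT on 1 array each, and 3.44 in intact corneas, with 178.8 and 263.9 in Dscr1KO, against 19.2 and 14.5 in WT. The difference between them was -4.53 ± 0.43 on the log2 scale (limma, adjusted p = 0.00551). That test was added after the values were seen and takes its spread from intact arrays alone, so the p is not support for a difference between the conditions. The 2 sutured WT arrays read 130.7 at day 5 and 45.1 at day 7. Xist read 4104 and 5385.2 in intact Dscr1KO, against 14.9 and 8.9 in intact WT. It read 6.0 in sutured Dscr1KO and 9.6 in sutured WT at day 5. The intact difference thus comes with a difference in Xist that the sutured one lacks, and its part was not tested. The 5 measured neutrophil markers summed to 1197.2 in sutured Dscr1KO and 10899.7 in sutured WT, and to 8624.3 and 19710.9 in intact Dscr1KO, against 209.2 and 139.8 in intact WT. At day 5 the lower sum in Dscr1KO came from S100a8 and S100a9, while Csf3r, Cxcr2 and Mmp9 were higher in sutured Dscr1KO. The 10 keratinised epithelium markers summed to 347.1 in sutured Dscr1KO and 1058.2 in sutured WT. The part of either list in the result was not tested.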

How the results depend on the processing

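Cyp7b1, Pltp and Nceh1 kept their averaged calls under all 17 alternatives, with log2 ranges of 2.88 to 3.42, 1.49 to 2.12 and 1.53 to 2.18, and Abca1 under 16 of 17. Mylip kept its averaged call under 10 of 17, at -1.29 to -0.58. Of 4 called in Dscr1KO against WT, 2 were called with Xist as a covariate and 2 with only those groups. ApoeKO against WT had 1 called with only those groups, and suturing 2 on WT arrays alone. With the second-brightest probe set, the single-array comparisons had 1, 2 and 2 past a size of 1 (Dscr1KO at day 5, Tg at day 7, WT day 7 against day 5), and Tg had 0 with the higher pseudocount. Leaving out each array gave 4 to 6 called in the average, 1 to 5 in Dscr1KO against WT, 2 to 4 in DKO against ApoeKO, 3 to 4 in DKO against WT, 0 to 1 in DKO against Dscr1KO, 1 to 2 in Dscr1 by suturing, and 0 in ApoeKO against WT, the interaction and suturing.

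No called value changed sign. With Xist as a covariate the sign turned for Nr1h3 (-0.29 in Dscr1KO against WT, -0.29 in ApoeKO against WT, 0.79 in the interaction), Abcg1 (0.18 in Dscr1KO against WT, -0.29 in DKO against Dscr1KO, -1.05 in the interaction) and Ch25h (0.17 in ApoeKO against WT, -0.019 in DKO against Dscr1KO, -0.19 in the interaction). Without the doubtful libraries it turned for Nr1h3 (-0.21 in DKO against ApoeKO, -0.084 in DKO against Dscr1KO), Abcg1 (-0.45 and, in the interaction, -0.66), Mylip (-0.47 and -0.41 likewise) and Nceh1 (-0.13 in ApoeKO against WT). The second-brightest probe set turned Abcg1 (0.24 in DKO against ApoeKO, -0.29 in ApoeKO against WT), Pltp (0.22 in DKO against Dscr1KO) and Abca1 (-0.35 in the interaction). Quantile normalization turned Nr1h3 in DKO against ApoeKO (-0.025) and the higher pseudocount Pltp in suturing (-0.0021). The cause was not tested.

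Leaving out each array, which left 1 array in the group for the intact ones, turned uncalled values within these ranges. DKO against ApoeKO had Nr1h3 at -0.21 to 0.54. ApoeKO against WT had Abcg1 at -0.11 to 0.21, Nceh1 at -0.13 to 0.68, Ch25h at -0.49 to 0.24 and Mylip at -0.21 to 0.061. DKO against Dscr1KO had Nr1h3 at -0.20 to 0.53, Abcg1 at -0.45 to 0.56, Pltp at -1.12 to 0.031, Ch25h at -0.084 to 0.33 and Mylip at -0.47 to 0.94. The interaction had Nr1h3 at -0.63 to 0.12, Abcg1 at -0.50 to 0.51, Ch25h at -0.11 to 0.62 and Mylip at -0.39 to 1.02. Suturing had Pltp at -0.20 to 0.61, Cyp7b1 at -0.27 to 1.99 and Mylip at -0.75 to 0.049.

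With the replicate block the count of called members and every member's call stayed as they were, for example Cyp7b1 at 3.15 in the average (adjusted p = 0.000142). Deviations of same-numbered arrays correlated at -0.05 to 0.07 across groups, so no strong deviation shared by replicate number was seen. That cannot show whether the samples were paired, and the labels do not say that the numbers pair them. Counts over all genes moved more. They ran from 2150 to 5670 around 4003 in the average, 263 to 3849 around 1482 in Dscr1KO against WT, 516 to 2801 around 2476 in DKO against ApoeKO, 691 to 2978 around 2536 in DKO against WT, 0 to 203 around 3 in ApoeKO against WT, 0 to 107 around 3 in DKO against Dscr1KO, 0 to 50 around 1 in the interaction, and 0 to 583 around 0 in suturing. Replicates differed over 2-fold in 1638 genes in Dscr1KO and 1139 in DKO, against 377 in ApoeKO and 214 in WT. A test pools these unequal spreads, and dim genes such as Nr1h3 and Ch25h failed the stricter filter.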

Other observations

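Abcg5, the gene of a sterol exporter known from liver and intestine, did not pass the filter on low values and was not tested. It read 3.1 and 2.8 in DKO and 2.8 and 0.3 in Dscr1KO, against 14.9 and 13.4 in ApoeKO and 12.8 and 18.4 in WT, so the intact arrays without Dscr1 all lay below those with it at a level close to the pseudocount of 3.6. Apoa1, whose protein accepts cholesterol from Abca1, read 9.1 or less on all 12 arrays. Both genes were named after their values were seen.

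Lrp8, a lipoprotein receptor gene whose protein Mylip also marks, read 43.3 and 37.1 in DKO and 11.9 and 65.7 in Dscr1KO, against 13.9 and 15.2 in ApoeKO and 8.4 and 12.3 in WT. Its averaged difference of 1.26 ± 0.44 was not called (limma, adjusted p = 0.0619), while Vldlr, the other such receptor measured, was lower. Vldlr read 199.1 and 56.9 in DKO and 78 and 58.7 in Dscr1KO, against 178.6 and 239 in ApoeKO and 182.8 and 155.8 in WT, and DKO replicate 1 lay with the arrays that have Dscr1. Lrp8 was also named after its values were seen.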
